A study of Mus musculus with 3 samples.

Results

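Brain vessels of mice lacking connexin 30 (Cx30-/-) were compared with those of C57BL6 wild-type (WT) mice across all genes of the deposited counts. The comparison used 2 of the 3 libraries of the series. The deposited counts cover 82813 Ensembl transcripts, of which 69375 (83.8%) were given a gene through GENCODE M21, making 29917 genes. Of these, 14776 had at least 50 normalized counts in 1 of the 2 libraries and were kept. A gene was called higher or lower when its normalized count differed at least 2-fold between the libraries. A gene under the minimum in 1 of the 2 libraries could therefore be called in 1 direction only. In the Cx30-/- library 210 genes were higher (1.42% of those kept) and 185 were lower (1.25%).

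Vessels were isolated from whole brains of 3-month-old mice, those of 3 mice were pooled for each library, and polyadenylated RNA was sequenced without keeping the strand. In the Cx30-/- mice the gene Gjb6, which encodes Cx30, is deleted in every tissue, and the WT mice carry it intact. The methods state that all mice were males. The labels put the Cx30-/- library on C57BL6, whereas the methods state a mixed C57BL6/Balbc background for these mice. The remaining library, C57BL6-BALB/c WT, called the mixed WT library here, is given beside the others where it helps to read a value. Where 3 values follow a gene without library names, they are normalized counts in Cx30-/-, C57BL6 WT and mixed WT vessels, in that order. Each group has 1 library and so no replicates, which means that no difference can be set against a spread between animals and no test was made. Intervals are 95% exact binomial intervals of the raw counts and cover counting error only. Normalized counts were raw counts divided by 1 factor per library, and the deposited counts summed to between 50375426 and 60725557 per library.

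Cx30 is a gap junction protein of astrocytes and is concentrated, with Cx43, in the endfeet that wrap brain vessels. A vessel preparation holds endothelial cells, pericytes and smooth muscle cells. The endothelial cells are joined by tight junctions and equipped with transporters that form the blood-brain barrier (BBB). Such a preparation can also carry along astrocyte endfeet, blood cells and fragments of the surrounding tissue. By staining for the astrocyte protein Gfap, the study saw few fibers left on its vessels and no cell bodies of astrocytes. In such bulk samples, fewer cells of a type and less RNA per cell cannot be told apart.

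The deleted gene itself was checked first. Gjb6 (ENSMUSG00000040055, chromosome 14, 57123303 to 57133611, minus strand; positions are from GRCm38) had 101 normalized counts in the Cx30-/- library, 2531 in C57BL6 WT and 2426 in the mixed WT library. The deletion label therefore matched the counts, with a level 25.1-fold lower in Cx30-/- than in C57BL6 WT vessels (log2 ratio -4.65, 95% interval -4.96 to -4.36). The Y-linked genes Ddx3y, Eif2s3y, Kdm5d and Uty had at least 690.3 normalized counts in both the Cx30-/- and the C57BL6 WT library. The median log2 ratio of all kept genes was -0.0045. Counting intervals excluded equal levels for 7979 genes. Most called genes were expressed at low levels. The median of the higher of the 2 normalized counts was 151 for the higher genes and 196 for the lower genes, against 729.6 for all kept genes. Ratios of at least 4-fold were found for 31 higher and 13 lower genes, and the interval lay wholly past 2-fold for 80 higher and 57 lower genes. The ratio of each gene is shown against its level in the plot of ratio and level. Just inside the limit were 1700001O22Rik and A930005H10Rik (log2 ratios 1.00 each) on the higher side and Zdhhc14 and Pdyn on the lower side. Just outside it were Gm16401 and Prom2 (both 0.99) on the higher side and Dscaml1, Sox10, Gjc3 and Cldn1 on the lower side. Zdhhc14 had 566 normalized counts in Cx30-/- and 1134 in C57BL6 WT, Dscaml1 had 609 and 1219.

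**Figure D1:**
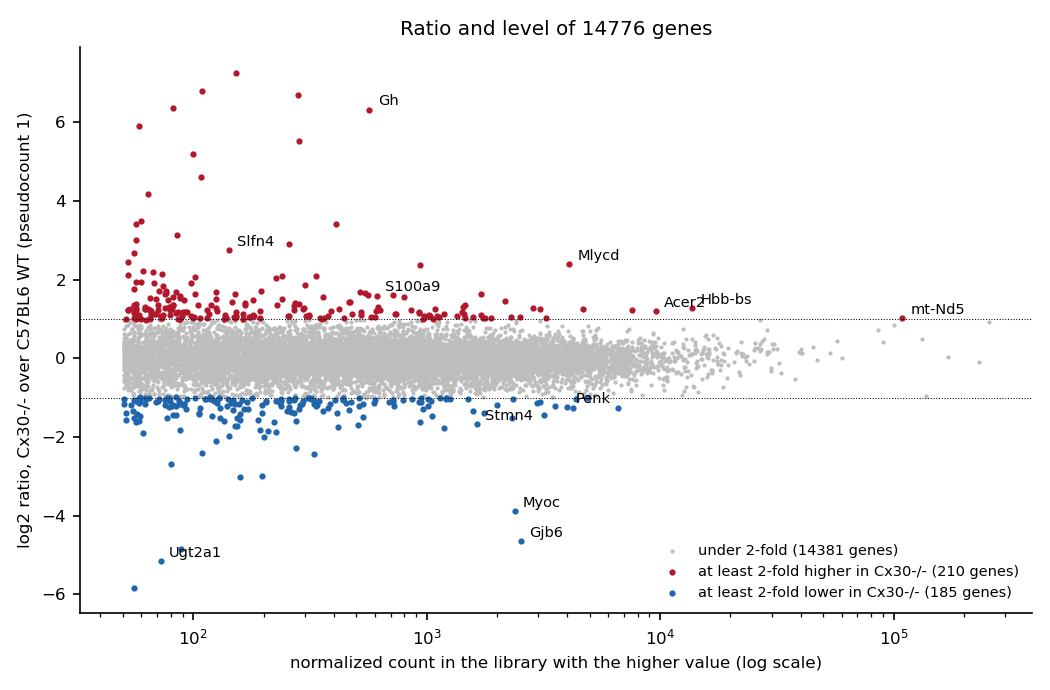
Log2 ratio of Cx30-/- over C57BL6 WT (pseudocount of 1 normalized count) against the normalized count in the library with the higher value (log scale), 1 point per gene, 1 library per group. The 210 higher genes (red) and 185 lower genes (blue) lie mostly at low counts, while Mlycd, Hbb-bs and mt-Nd5 are higher genes at high counts.

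A set of genes with few or no counts in the C57BL6 WT library was present in both other libraries, and these values bear on the labelled background. They include class I genes of the Q region of the major histocompatibility complex, which is known to differ in gene content between mouse strains. H2-Q10 (ENSMUSG00000067235, chromosome 17, 35470089 to 35474563, plus strand) had 284 normalized counts in Cx30-/-, 5.24 in C57BL6 WT and 389.9 in mixed WT vessels, a log2 ratio of 5.76 (95% interval 4.62 to 7.22). Gm8909, a class I-like gene of the same region, had 109, 0 and 119.9, at least 41.6-fold higher in Cx30-/- when the 0 of the WT library is set to the floor of 3 counts. H2-Q2 had 56.6, 6.11 and 78.8. In all 3 genes the Cx30-/- library stood with the mixed WT library and apart from C57BL6 WT. Reads were aligned to 1 reference genome, and those that matched it more than once had been removed. Whether reads of related class I genes were counted under these names was not tested. The class II gene listed as H2-Ea-ps, which is defective in C57BL6 mice, was named after its values were seen. It had 152 normalized counts in Cx30-/-, 0 in C57BL6 WT and 124 in mixed WT vessels. The same order was found outside the complex. Ifi202b, an interferon-inducible DNA sensor gene on chromosome 1, had 58.7, 0 and 43.2 normalized counts. Nlrp1a, encoding an inflammasome sensor, had 99.7, 1.75 and 61.6, the WT value resting on 2 counts (log2 ratio 5.83, 95% interval 3.94 to 8.90). Both were near absent from C57BL6 WT and present in the other libraries. The zinc finger gene Zfp729a had 936 normalized counts in Cx30-/-, 179.9 in C57BL6 WT and 771 in mixed WT vessels. The splicing factor gene Cwc22 had 410.2, 37.5 and 1507, but its log2 ratio of 3.45 was 1.46 when all its transcript rows were summed and 1.26 for its longest row. Genotype and background cannot be told apart in these genes.

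The opposite order, high in C57BL6 WT and low in both other libraries, was found among the lower genes. Myoc (myocilin, a secreted glycoprotein; ENSMUSG00000026697, chromosome 1, 162639155 to 162649693, plus strand) had 161 normalized counts in Cx30-/-, 2381 in C57BL6 WT and 206 in mixed WT vessels, the lowest ratio at a level over 1000 after Gjb6 (log2 ratio -3.89, 95% interval -4.14 to -3.66). The zinc finger gene Zfp933 had 346, 1182 and 302. Ints7 (chosen after its values were seen), a subunit of the Integrator complex, had 811, 2329.7 and 901. In these genes it was the C57BL6 WT library that stood apart. Bub1b, a mitotic checkpoint kinase, had 55.6 normalized counts in Cx30-/-, 275 in C57BL6 WT and 19.4 in mixed WT vessels. Col6a4, a collagen VI chain, had 59.8, 328 and 70.2. Pnpla3, a lipid hydrolase, differed from these, with 49.3, 199.96 and 136, so that the mixed WT library lay nearer to C57BL6 WT. Between the WT libraries themselves, 3.43% of 14791 genes differed at least 2-fold, with the same minimum.

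**Figure D2:**
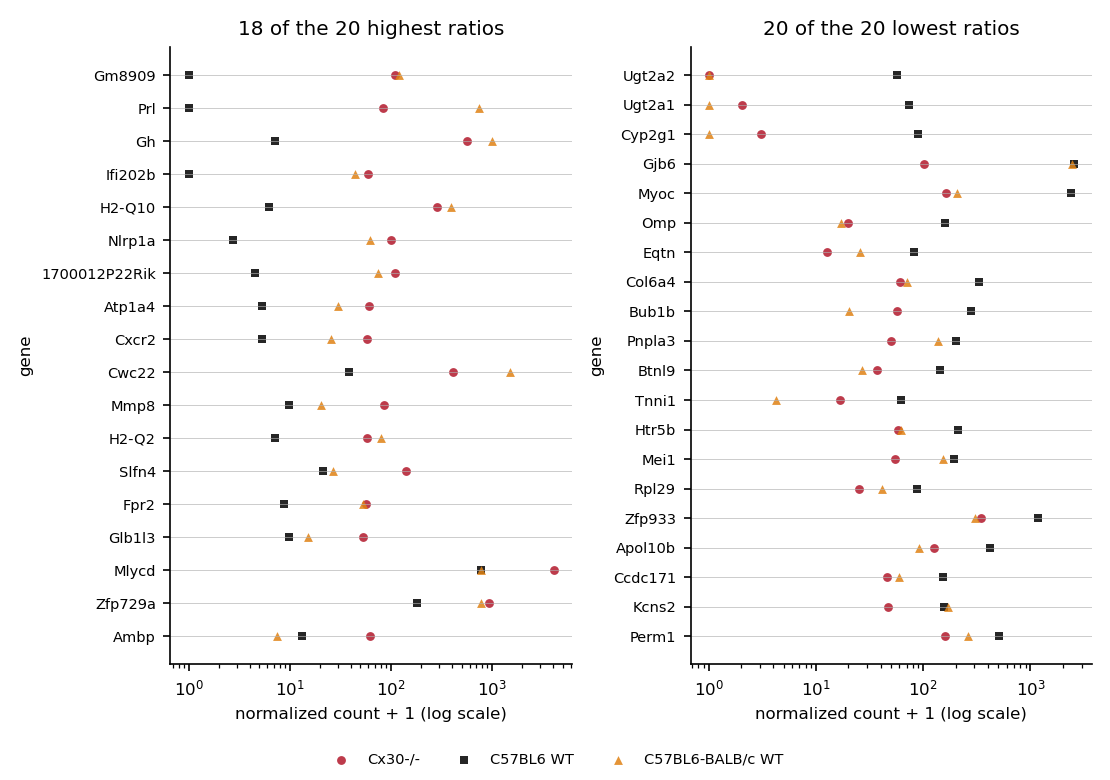
Normalized count plus 1 (log scale) in the Cx30-/- (circles), C57BL6 WT (squares) and C57BL6-BALB/c WT (triangles) libraries for 18 of the 20 protein-coding genes with the highest ratios and the 20 with the lowest. H2-Q10, Gm8909 and Ifi202b are low only in C57BL6 WT, Slfn4, Mlycd and Ambp are high only in Cx30-/-, and Gjb6 is low only in Cx30-/-.

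Transcripts of tissues next to the brain differed strongly between the libraries. Growth hormone (Gh) and prolactin (Prl) are made by the anterior pituitary. Gh had 569 normalized counts in Cx30-/-, 6.11 in C57BL6 WT and 1008 in mixed WT vessels, a log2 ratio of 6.54 (95% interval 5.49 to 7.86), and Prl had 81.8, 0 and 739. Of a list of 12 pituitary genes, drawn up after these values were seen, 4 passed the minimum, and the others were Pomc (185, 114 and 213) and Lhb (209.8, 121 and 196), both above 1.5-fold but under 2-fold. Genes of the olfactory epithelium, also listed after their values were seen, went the other way, with 5 of 10 over the minimum called lower and none higher. At 1.5-fold 1 was higher. The 13 genes of the list summed to 2247, 3048 and 3167 normalized counts, so that the mixed WT library was the highest over the list. Omp, the olfactory marker protein, had 18.9 normalized counts in Cx30-/-, 159 in C57BL6 WT and 16.2 in mixed WT vessels, and Cyp2g1, an olfactory cytochrome P450, had 2.10, 88.2 and 0. The glucuronosyltransferase genes Ugt2a1 (1.05, 72.5 and 0) and Ugt2a2 (0, 55.9 and 0) share nearly all their exon bases, so that their reads cannot be told apart. Omp, Cyp2g1, Ugt2a1 and Ugt2a2 were highest in the C57BL6 WT library, from which Gh and Prl were nearly absent. These olfactory genes passed the minimum only through that library, so they could be counted only as lower. The part of tissue carried along with the vessels in these differences was not tested.

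The vascular cells that the preparation is meant to hold were present at high levels in both libraries and no marker of them was called. All 20 endothelial markers passed the minimum, none differed 2-fold, and all 20 lay above 0 (median log2 ratio 0.22). At 1.5-fold, 4.92% of all kept genes were higher and 5.86% lower, and of the endothelial markers 2 were higher and none lower. The highest was Slco1a4, an organic anion transporter of the BBB, with 28653 normalized counts in Cx30-/-, 17533 in C57BL6 WT and 9777 in mixed WT vessels, and the lowest was Cd34, with 9669, 9420.1 and 5717. Summed over the list, the endothelial markers had 296490 normalized counts in Cx30-/-, 247676 in C57BL6 WT and 156548 in mixed WT vessels. The 16 smooth muscle markers had a median of 0.39, and 15 of them were above 0. Acta2, encoding smooth muscle α-actin, had 15447, 12709 and 18730.5 normalized counts (log2 ratio 0.28, 95% interval 0.25 to 0.31). Its level was higher in the Cx30-/- library than in C57BL6 WT and lower than in the mixed WT library. Pericyte markers, 12 of 12 over the minimum, had a median of 0.14 and ran from -0.43 for Kcnj8, a potassium channel subunit, to 0.55 for Higd1b. The 13 fibroblast markers over the minimum had a median of 0.33 with none called, and the arterial and venous endothelial lists had medians of 0.26 and 0.40 with none called. A list of 16 meningeal genes, added after values were seen, had a median of 0.56, with the transcription factor genes Six2, Osr1 and Lmx1b at least 2-fold higher. The lowest value of this list was 29.7, in C57BL6 WT. At least 1 of its genes passed the minimum only through Cx30-/- and could lie only above 0.

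Astrocyte markers, all 16 over the minimum, were close to equal between the libraries, with a median log2 ratio of -0.06 and no member past 1.5-fold. Gja1, encoding Cx43, the other main connexin of astrocytes, had 4759.6 normalized counts in Cx30-/-, 4487 in C57BL6 WT and 4619 in mixed WT vessels (log2 ratio 0.09, 95% interval 0.03 to 0.14). Aqp4, the water channel of the endfoot, had 339, 314 and 454 (log2 ratio 0.11, 95% interval -0.11 to 0.33). Gfap, the astrocyte intermediate filament, had 4519, 5401 and 5332 (log2 ratio -0.26, 95% interval -0.31 to -0.20). Among these, the counting interval of Aqp4 included 0, that of Gja1 lay just above it and that of Gfap below it. Dag1, encoding dystroglycan, which anchors the endfoot to the basement membrane, had a log2 ratio of 0.09 (95% interval 0.02 to 0.15). The lowest astrocyte marker was the glutamate transporter Slc1a2 (-0.42), and the highest were the potassium channel Kcnj10 and the transcription factor Sox9 (both 0.36).

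**Figure D3:**
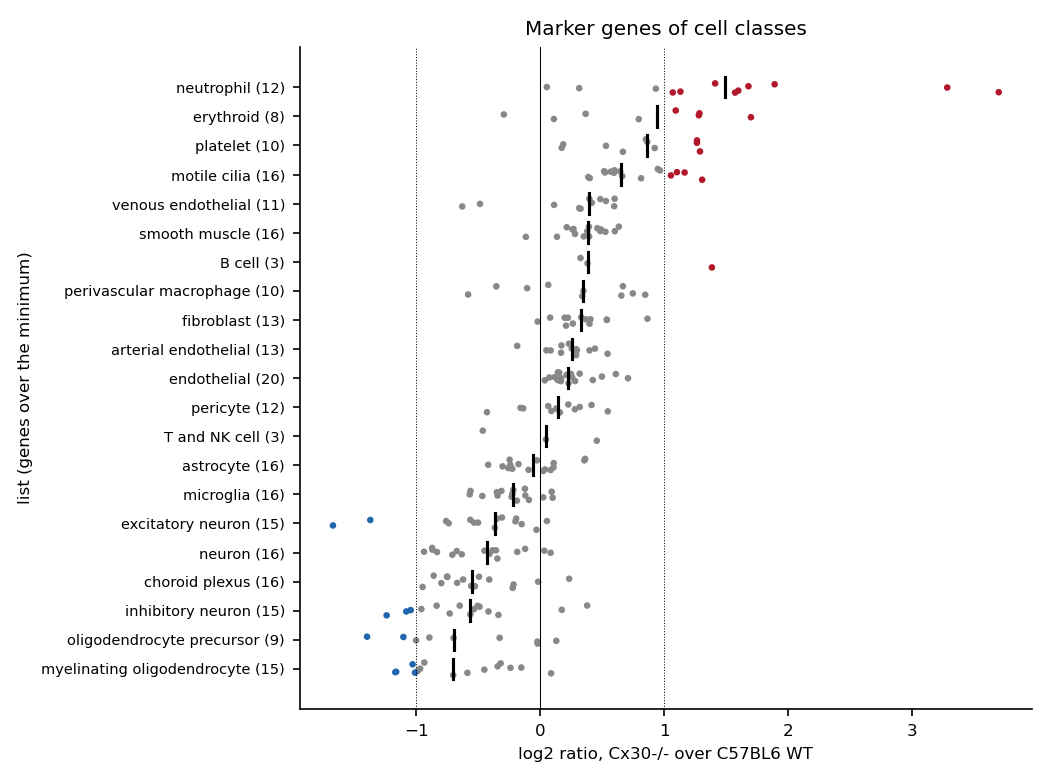
Log2 ratio of Cx30-/- over C57BL6 WT for the marker genes of 21 cell classes, 1 point per gene over the minimum (number in parentheses), with genes past 2-fold in red (higher) or blue (lower) and the median of each list as a black bar. Neutrophil, erythroid, platelet and motile cilia lists have their medians farthest above 0, and oligodendrocyte, inhibitory neuron and choroid plexus lists farthest below.

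Genes of neutrophils, erythroid cells and platelets were higher in the Cx30-/- library. Of 17 neutrophil markers 12 passed the minimum, 9 of them were at least 2-fold higher and none was lower, with a median log2 ratio of 1.49. The alarmin S100a9 had 611 normalized counts in Cx30-/-, 202 in C57BL6 WT and 119 in mixed WT vessels (log2 ratio 1.60, 95% interval 1.38 to 1.82), and its partner S100a8 had 361, 121 and 60.5. The collagenase gene Mmp8 had 84.97, 8.73 and 19.4, and Cxcr2, the chemokine receptor that draws neutrophils into tissue, had 56.6, 4.37 and 24.8. All were highest in the Cx30-/- library. Of the granule protein genes, Ngp (272, 102 and 68.0) and Camp (75.5, 23.6 and 15.1) were also highest there, whereas Ltf, encoding lactoferrin, was higher in the mixed WT library (152, 72.5 and 219). Retnlg (1.89) and Mmp9 (1.13) completed the 9. Mmp8, Cxcr2, Camp and Retnlg passed the minimum only through the Cx30-/- library, so they could be counted only as higher. Lcn2, which other cells also make, had 5302, 4261 and 682 and was not called (log2 ratio 0.32), and the receptor gene Csf3r was near equal (0.05). Summed over the list, neutrophil markers had 7482, 5143 and 1615 normalized counts, of which Lcn2 made up the greater part in the Cx30-/- and C57BL6 WT libraries.

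Of 8 erythroid markers over the minimum, 4 were at least 2-fold higher and none lower (median log2 ratio 0.94). The β-globin gene Hbb-bs (ENSMUSG00000052305, chromosome 7, 103826534 to 103828096, minus strand) had 13725 normalized counts in Cx30-/-, 5652 in C57BL6 WT and 3354 in mixed WT vessels (log2 ratio 1.28, 95% interval 1.24 to 1.32). Per kilobase these were 17641, 7265 and 4311, among the 5 largest differences per kilobase of the higher genes. Alas2, the erythroid enzyme that starts heme synthesis, had 1707, 799.9 and 418. The other called members were the globin genes Hbb-bt (1.28) and Hba-a1 (1.70). Hba-a1 passed the minimum only through the Cx30-/- library (125 normalized counts, against 38.4 in C57BL6 WT). The values of Hbb-bs, Hbb-bt and Hba-a1 are uncertain, since these genes have near-identical copies and reads that matched the genome more than once had been removed. Of 14 platelet markers 10 passed the minimum, and all 10 lay above 0 (median 0.86). The 3 called were the receptor genes Clec1b and Gp9 and the platelet tubulin gene Tubb1 (log2 ratios 1.29, 1.26 and 1.26). These 3 had 25.3, 27.1 and 33.2 normalized counts in C57BL6 WT. They passed the minimum only through the Cx30-/- library, so they could be counted only as higher. Pf4 and Ppbp, the platelet chemokines, had log2 ratios of 0.67 and 0.85. Leukocyte genes outside these lists included Ccr2, the chemokine receptor of inflammatory monocytes (116, 53.3 and 48.6). The amount of blood left in each preparation was not tested. Microglial markers, by comparison, were slightly lower (16 over the minimum, median -0.22, none past 1.5-fold), and of 10 perivascular macrophage markers none was called (median 0.34). Only 3 B cell and 3 T and NK cell markers passed the minimum, and Igkc, the κ light chain, was the one called (105, 40.2 and 162). Igkc passed only through the Cx30-/- library, so it could be counted only as higher. The T and NK cell markers did not lean higher (median 0.05), with 2 above 0 and 1, Cd4, below it (-0.46).

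Genes of motile cilia, which ependymal cells lining the ventricles carry, were higher as a group. All 16 markers over the minimum lay above 0, 11 were past 1.5-fold and 4 past 2-fold, none was lower, and the median log2 ratio was 0.65. Of the 4, Cfap43 (97.6, 45.4 and 78.8) passed the minimum only through the Cx30-/- library, so it could be counted only as higher. Dnah5, a heavy chain of the axonemal dynein motor, had 1428 normalized counts in Cx30-/-, 577 in C57BL6 WT and 744 in mixed WT vessels (log2 ratio 1.31, 95% interval 1.17 to 1.44). Hydin, a protein of the central pair of the axoneme, had 1412, 629.6 and 751, and Ak7, an axonemal adenylate kinase, had 2515, 1210.3 and 1205. In each the Cx30-/- library was the highest and the WT libraries lay nearer to each other. Foxj1, the transcription factor that directs motile ciliogenesis, had 3336, 2108 and 2348 (log2 ratio 0.66, 95% interval 0.59 to 0.74) and did not reach 2-fold. Of 10 dynein heavy chain genes over the minimum 4 were called higher (Dnah3, Dnah5, Dnah10 and Dnah12; median 0.90), as were 4 of 27 genes named for cilia and flagella associated proteins (median 0.64) and 3 of 12 tubulin tyrosine ligase-like genes, among them Ttll6 (1451, 665 and 564). These families were collected after the cilia genes had been seen to be higher. The lowest value of the dynein list was 23.6, in C57BL6 WT. At least 1 of its 4 called genes could therefore be counted only as higher. Odf3b, an outer dense fiber gene, was among the largest differences per kilobase, with 2074 normalized counts per kilobase in Cx30-/-, 755 in C57BL6 WT and 584 in mixed WT vessels. The choroid plexus, which adjoins the ependyma, did not follow. Of its 16 markers 15 lay below 0 (median -0.55), 7 of them past 1.5-fold and none past 2-fold, and the transporter gene Slc13a4 lay above it (0.23). Ttr, the thyroid hormone carrier of the choroid plexus, had 71366 normalized counts in Cx30-/-, 137637 in C57BL6 WT and 52930.5 in mixed WT vessels (log2 ratio -0.95). Summed over the list, choroid plexus markers had 113384, 196218 and 82813 normalized counts, so that C57BL6 WT was the highest and the mixed WT library the lowest. Motile cilia markers summed to 21103, 12841 and 14528.

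Genes of the oligodendrocyte lineage were lower in the Cx30-/- library. Of 15 markers of myelinating oligodendrocytes over the minimum, 4 were at least 2-fold lower, 9 at least 1.5-fold lower and none higher (median log2 ratio -0.70). Fa2h, which makes the hydroxylated lipids of myelin, had 237 normalized counts in Cx30-/-, 533 in C57BL6 WT and 481 in mixed WT vessels (log2 ratio -1.17, 95% interval -1.39 to -0.95). Opalin, a myelin membrane protein, had 126, 257 and 157. Mbp, encoding myelin basic protein, differed less (log2 ratio -0.24), and Mal lay above 0 (0.09). Trf, encoding transferrin, was called on its most counted row (2444, 4919 and 2358), but that row shares 82.0% of its exon bases with the gene Gm20425 and the longest row gave a log2 ratio of 0.42, so its direction is uncertain. Of 9 precursor markers over the minimum, 2 were called lower. The transcription factor gene Olig2 had 157, 414 and 348 normalized counts (log2 ratio -1.40, 95% interval -1.67 to -1.13), and Olig1 had 431, 926 and 677. Their partner Sox10, with 274, 547 and 402, lay just short of the limit. Myrf, the transcription factor that drives myelination, was also lower (342, 715 and 743). In contrast Pdgfra and Cspg4, which mark precursors but also vascular and perivascular cells, had log2 ratios of -0.02 and 0.13.

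Neuronal marker lists were lower in the Cx30-/- library. None of 16 general neuronal markers was called, but 7 were past 1.5-fold lower and the median was -0.43. Inhibitory neuron markers had a median of -0.56 with 3 of 15 called lower, namely the opioid peptide gene Penk, the peptide gene Cck and Slc32a1, the vesicular GABA transporter. Penk (ENSMUSG00000045573, chromosome 4, 4133531 to 4138819, minus strand) had 1693 normalized counts in Cx30-/-, 3992 in C57BL6 WT and 4247 in mixed WT vessels (log2 ratio -1.24, 95% interval -1.32 to -1.16). Cck had 731, 1507 and 1305, and Slc32a1 had 495, 1046 and 1015. In all 3 the WT libraries lay together above Cx30-/-. Excitatory neuron markers had a median of -0.37 with 2 of 15 called lower, the NMDA receptor subunit genes Grin2a (17.8, 56.8 and 99.4) and Grin2b (102, 263 and 228). Grin2a passed the minimum only through the C57BL6 WT library, so it could be counted only as lower. Summed over their lists, general neuronal markers had 225521, 249547 and 392894 normalized counts in the 3 libraries and inhibitory markers 8297, 14134 and 16657. The share of neural tissue carried along in each preparation was not tested.

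By function, the lists with the lowest medians were neuronal. Of 21 neuropeptide genes over the minimum 6 were called lower, 17 were past 1.5-fold lower and 1 was past 1.5-fold higher (median log2 ratio -0.83). The exception was Pomc, which the pituitary also makes. Besides Penk and Cck, those called were Pdyn, Scg2, Nxph1 and Crh. The last, the corticotropin-releasing hormone gene, had 30.4 normalized counts in Cx30-/-, 84.7 in C57BL6 WT and 106 in mixed WT vessels. Crh passed the minimum only through the C57BL6 WT library, so it could be counted only as lower. All 14 GABA receptor genes lay below 0 and 12 were past 1.5-fold lower, yet none reached 2-fold (median -0.76). They ran from -0.96 for Gabra2 to -0.38 for Gabrb1. All 20 voltage-gated potassium channel genes also lay below 0, with 16 past 1.5-fold and 5 past 2-fold (median -0.72). The silent subunit gene Kcns2 (ENSMUSG00000050963, chromosome 15, 34837355 to 34843407, plus strand) had 46.2, 154 and 167 normalized counts (log2 ratio -1.74, 95% interval -2.25 to -1.25), and the axonal channel gene Kcna2 had 67.1, 164 and 278. Kcns2 passed the minimum only through the C57BL6 WT library, so it could be counted only as lower. Kcnq3, Kcnv1 and Kcna6 were the others called, the last sharing 40.2% of its exon bases with the gene Gm26673. Kcna5, which vascular muscle expresses, was near 0 (-0.04). Glutamate receptor genes (22, median -0.54), sodium and calcium channel genes (20, -0.45) and synaptic vesicle genes (24, -0.43) were lower by less. Of the vesicle genes only Sv2b was called (1407, 3049 and 3171).

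**Figure D4:**
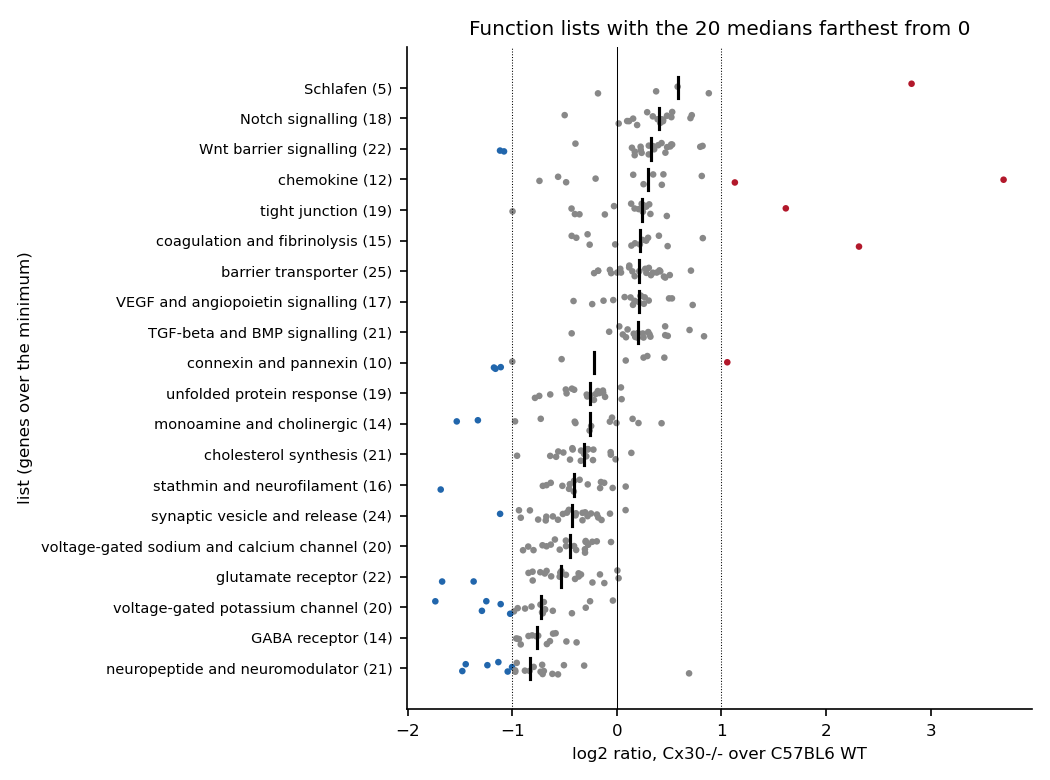
Log2 ratio of Cx30-/- over C57BL6 WT for the genes of the 20 function lists (with at least 5 genes over the minimum) whose medians lie farthest from 0, drawn as in the plot of cell classes. The potassium channel and GABA receptor lists lie wholly below 0, and the barrier and signalling lists lie mostly above it with few called genes.

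Genes typical of striatal projection neurons stood out among the lower neuronal genes and were collected into a list after this was seen. Of 14 over the minimum 5 were called lower (median log2 ratio -0.92). Drd1, the D1 dopamine receptor, had 185 normalized counts in Cx30-/-, 464 in C57BL6 WT and 461 in mixed WT vessels (log2 ratio -1.33, 95% interval -1.58 to -1.08). Gpr6, a receptor gene of these neurons, had 71.3, 223 and 144. The Cx30-/- library was the lowest in both. Other striatal genes were nearer to 0, with log2 ratios of -0.40 for Adora2a, -0.38 for Rgs9 and 0.19 for Foxp1. Serotonin receptor genes were also among the lower ones, Htr1a with 53.5, 155 and 186 and Htr5b with 57.7, 209 and 60.5, the mixed WT library being high for the first and low for the second.

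Genes of the barrier were mostly near equal. Of 19 tight junction genes 1 was called. Marveld2, encoding tricellulin, which seals the points where 3 cells meet (ENSMUSG00000021636, chromosome 13, 100595957 to 100616971, minus strand), had 714 normalized counts in Cx30-/-, 233 in C57BL6 WT and 686 in mixed WT vessels (log2 ratio 1.62, 95% interval 1.41 to 1.83). Here the mixed WT library stood with Cx30-/-. Cldn5, the main claudin of brain endothelium, had 29047, 25826 and 12122 (log2 ratio 0.17). Ocln and Tjp1, encoding occludin and ZO-1, had log2 ratios of 0.26 and 0.28, and the median of the list was 0.24. Cldn1, at 189.9, 379 and 167, lay just short of the lower limit. None of 25 barrier transporter genes was called (median 0.21), the glucose transporter Slc2a1 having a log2 ratio of 0.28 and the lipid transporter Mfsd2a 0.12. None of 15 adherens junction genes was called (median 0.15), none of 17 collagen genes (0.08) and none of 20 basement membrane genes (0.20). In the list of dystrophin complex genes, 14 of 16 passed the minimum and none was called (0.10).

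Signalling lists of the vessel wall leaned higher without many calls. Notch genes, which set arterial identity, had a median log2 ratio of 0.40 with 17 of 18 above 0, the highest being Notch4 (5294, 3221 and 3759.9) and Jag1 (4988, 3062 and 3087). Genes of Wnt signalling, which induces and keeps the barrier, had a median of 0.33 with 19 of 22 above 0. The endothelial transcription factor gene Sox17 was the highest of them (4931, 2793 and 2967; log2 ratio 0.82). The ligand genes Wnt7a and Ndp went the other way. Wnt7a had 70.3 normalized counts in Cx30-/-, 148 in C57BL6 WT and 153 in mixed WT vessels. Ndp, encoding norrin, had 39.9, 86.4 and 56.2. Both were called lower, but Ndp passed the minimum only through C57BL6 WT and could be counted only as lower. VEGF and angiopoietin genes (17, median 0.21) and TGF-β and BMP genes (21, 0.20) had no called member. Interferon-induced genes were near equal, with none of 31 called and a median of 0.06. Of 30 immediate early genes, which respond to stimulation within minutes, none was called, 5 were past 1.5-fold lower and 1 past 1.5-fold higher (median -0.05), ranging from -0.80 for Dusp5 to 0.73 for Ier3. None of 14 heat shock genes was called (median 0.07). Cholesterol synthesis genes leaned lower, 20 of 21 below 0 with none called (median -0.32). Complement (16 genes over the minimum), circadian clock (19), insulin-like growth factor (13), vascular tone (19) and detoxification (29) genes also had no called member, with medians between 0.03 and 0.17.

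Among connexins, Gjb6 apart, 10 genes of the list passed the minimum, 1 was called higher and 3 lower. Gjb2, encoding Cx26 and lying beside Gjb6 (ENSMUSG00000046352, chromosome 14, 57098600 to 57104702, minus strand), had 2286 normalized counts in Cx30-/-, 1099 in C57BL6 WT and 891 in mixed WT vessels (log2 ratio 1.06, 95% interval 0.96 to 1.16). The lower ones included the oligodendrocyte connexin gene Gjb1 (69.2, 156 and 139) and the neuronal connexin gene Gjd2 (56.6, 122 and 95.1). Gjc3, also of oligodendrocytes, lay just short of the limit (614, 1227 and 1296), while the endothelial Gja4 and Gja5 had log2 ratios of 0.26 and 0.29. Within 10 Mb on either side of Gjb6, 168 other genes were kept, of which 2 were called higher and 5 lower (4.17%, against 2.65% of the 14607 genes elsewhere). Apart from Gjb2, those named are Slc39a2, a zinc transporter gene, and 4 genes lying close to one another near the far edge of the window. Stmn4, encoding a neuronal microtubule regulator (ENSMUSG00000022044, chromosome 14, 66344296 to 66361680, plus strand), had 509 normalized counts in Cx30-/-, 1635 in C57BL6 WT and 1646 in mixed WT vessels (log2 ratio -1.68, 95% interval -1.83 to -1.54). Trim35, a ubiquitin ligase gene, had 1769.8, 4247 and 4039.7, and the tyrosine kinase gene Ptk2b had 1172, 3189.8 and 6515. Ephx2, encoding soluble epoxide hydrolase, had 137, 295 and 243. The 4 neighbours were lowest in the Cx30-/- library. Effects of the deletion and of the chromosome segment around it cannot be told apart here.

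**Figure D5:**
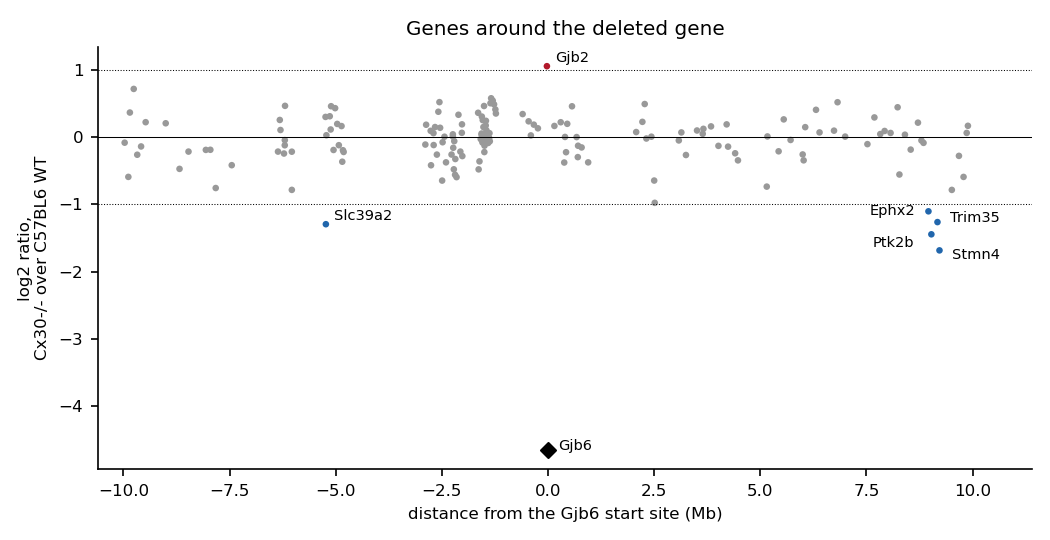
Log2 ratio of Cx30-/- over C57BL6 WT against distance from the Gjb6 start site in Mb, 1 point per kept gene within 10 Mb, with called genes in red (higher) or blue (lower) and Gjb6 as a black diamond. The 5 lower genes comprise Slc39a2 and the neighbours Ephx2, Ptk2b, Trim35 and Stmn4, and 1 of the 2 higher genes is drawn.

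Of all genes at a level over 1000, Mlycd gave the highest ratio. It encodes malonyl-CoA decarboxylase, which removes the malonyl-CoA that blocks entry of fatty acids into mitochondria (ENSMUSG00000074064, chromosome 8, 119394878 to 119411102, plus strand). Mlycd had 4079.8 normalized counts in Cx30-/-, 771 in C57BL6 WT and 778 in mixed WT vessels, 5.29-fold higher than in C57BL6 WT (log2 ratio 2.40, 95% interval 2.30 to 2.51). It was the only one of 34 fatty acid metabolism genes called (median -0.10), and the nearest below it was Acacb, the enzyme that makes malonyl-CoA at mitochondria (0.42). Slfn4, a Schlafen gene of myeloid cells (ENSMUSG00000000204, chromosome 11, 83175186 to 83190216, plus strand), had 142, 20.1 and 25.9 (log2 ratio 2.82, 95% interval 2.17 to 3.52). Of the other 4 Schlafen genes over the minimum none was called, Slfn8 being the highest (0.88). Ambp, the precursor of α1-microglobulin and bikunin, had 60.8, 12.2 and 6.48 (log2 ratio 2.32, 95% interval 1.46 to 3.27). In Mlycd, Slfn4 and Ambp the Cx30-/- library alone was high. Acer2, a ceramidase of the Golgi, had 9561 normalized counts in Cx30-/-, 4159.9 in C57BL6 WT and 3777 in mixed WT vessels (log2 ratio 1.20, 95% interval 1.15 to 1.25), and its level per kilobase was 2268, 987 and 896. Guidance genes included Sema3d as the one called (167, 62.0 and 129.6). Low-count genes with ratios above 4-fold included the sodium pump gene Atp1a4 (59.8, 4.37 and 29.2), the formyl peptide receptor gene Fpr2 (55.6, 7.86 and 51.8) and Glb1l3 (52.5, 8.73 and 14.0).

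Mitochondrially encoded mRNAs over the minimum were higher. All 7 over the minimum lay above 0 with a median log2 ratio of 0.84, a list added after values were seen. The complex I subunit gene mt-Nd5 had 108749, 53915 and 49249.5 normalized counts (log2 ratio 1.01, 95% interval 1.00 to 1.03), and it was the one called. The lowest of the 7 was mt-Co1 (0.43). Respiratory chain subunits encoded in the nucleus did not share this, with 29 genes, none called and a median of -0.04.

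Genes without a protein-coding annotation held 31 of the 210 higher and 28 of the 185 lower genes. Small nucleolar RNA genes stood out, with 10 of 38 lower and none higher (26.3%, against 1.25% of all kept genes). Of the 10, 9 lie wholly within exons of another gene, 5 of them in Gas5, a non-coding host gene that was called lower itself. Gas5 (named after its values were seen) had 216 normalized counts in Cx30-/-, 439 in C57BL6 WT and 301 in mixed WT vessels (log2 ratio -1.02, 95% interval -1.26 to -0.79). Reads of a small RNA gene and of its host cannot be told apart in such a library. Of 24 microRNA genes over the minimum, 1 was higher and 2 lower, and all 3 are given here although they were chosen after their values were seen. The row of Mir126a, which lies wholly in exons of the endothelial gene Egfl7, had 88.1, 43.7 and 35.6 normalized counts, and Egfl7 itself had 9281, 6079 and 3576. The neuronal Mir132 had 37.8, 76.8 and 121, and Mir374b had 34.6, 71.6 and 108, sharing 51.6% of its bases with Mir374c. Each of the 3 had under 50 normalized counts in 1 of the 2 libraries and could be called in 1 direction only. In a library of polyadenylated RNA these rows measure precursor or host transcripts, not the mature forms. Mature sequences of the 3 genes (RefSeq, GRCm38.p6) are shown to identify them, for Mir126a only miR-126a-3p. They are written 5′ to 3′ with the seed, bases 2 to 8, in capitals.
mmu-miR-126a-3p: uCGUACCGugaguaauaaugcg
mmu-miR-132-3p: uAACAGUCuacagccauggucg
mmu-miR-132-5p: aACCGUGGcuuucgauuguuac
mmu-miR-374b-3p: gGUUGUAUuaucauuguccgag
mmu-miR-374b-5p: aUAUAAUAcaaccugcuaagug
No seed is shared among the 5. Of all 395 called genes, 108 share at least 1 exon base with another gene and 28 share at least 50% of them. Shared bases were counted on either strand. Reads in them cannot be given to 1 gene in these libraries, which kept no strand.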

How the data were processed

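Polyadenylated RNA of brain vessels was sequenced in 3 libraries, each a pool of 3 mice. The authors called bases with CASAVA 1.8.2, filtered the reads, aligned them to the mouse genome mm10 with Bowtie within the Eoulsan pipeline, removed reads with several matches and counted those overlapping exons. The deposited files hold raw counts per Ensembl transcript, with no normalization. Transcripts were given genes by GENCODE M21 (GRCm38), and positions and names are from it. Per gene the row with the largest total count over the 3 libraries was kept, 10440 genes having several rows. Each library was scaled by its median ratio to the geometric mean of the 3 libraries (size factors 0.953 for Cx30-/-, 1.15 for C57BL6 WT and 0.926 for C57BL6-BALB/c WT). Genes with at least 50 normalized counts in 1 of the 2 libraries were kept, and a 2-fold difference was the call. With 1 library per group no test was possible. Intervals of log2 ratios are Clopper-Pearson intervals of the raw counts at 95% (SciPy 1.17.1), and a count of 0 was set to a floor of 3 counts per library for bounds. The computation was checked on simulated counts. Python 3.11.15, pandas 2.3.3 and NumPy 2.4.6 were used, with TMM factors from edgeR 4.0.16 in R 4.3.3.

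The genes named are the 20 highest and 20 lowest protein-coding genes past 2-fold (log2 with a pseudocount of 1), the 5 largest differences of normalized counts per kilobase in each direction, list members past 2-fold or else the highest and lowest member, Gjb6 with the genes the study followed, and protein-coding genes past 2-fold within 10 Mb of Gjb6. Not every gene that meets the rule is described, and genes named outside it were chosen after their values were seen. The 69 lists and the rule were chosen with earlier results of these data known, and 10 further lists were added after values were seen. Some genes that the rule names are not reported here. They remain in all counts and medians. Alternatives were other normalizations, other rows per gene, other minimums and folds, and a pseudocount.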

Additional observations from a re-analysis of the deposited data

How the results depend on the processing

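With 1 library per group, no replicate could be left out. No paired analysis was possible because each group has 1 library. Against 210 higher and 185 lower genes, the counts were 1930 and 1882 with no minimum, 109 and 120 with 50 normalized counts required in both libraries, and 87 and 90 with 200 required in 1 of them. A limit of 1.5-fold gave 727 and 866, a limit of 3-fold 53 and 33, and intervals wholly past 2-fold 80 and 57. Other normalizations gave 207 to 224 higher and 170 to 194 lower genes, and summing all rows of a gene gave 241 and 220. Across the other normalizations and choices of row, the share of higher genes among those called ran from 51.9% to 56.9%, against 53.2%. It moved further with the minimum and the fold. Lower genes outnumbered higher ones with 50 normalized counts in both libraries, with 200 in 1 of them and at 1.5-fold. Higher genes were the more numerous at 3-fold and for intervals wholly past 2-fold. Of 193 named genes, Trf reversed (log2 ratio 0.42 for its longest row). The medians of the ABC transporter, hypoxia and glycolysis and ribosomal protein lists changed sign with the setting, and the cause was not tested. Most called genes had few counts, and the number called falls with the minimum by the construction of the alternative.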
